A study of Rattus norvegicus with 9 samples.

Results

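Nephron identity transcription factors are the DNA-binding proteins that set up and hold the segments of the renal tubule. The 8 genes described here are Hnf4a, Hnf4g, Pax2, Pax8, Lhx1, Gata3, Tfcp2l1 and Esrrg. They were chosen by name, and every gene probe on the array that carried one of these names was used. This gave 9 probes, since Tfcp2l1 had 2, among 30367 gene probes for 26115 gene names.

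The arrays measured whole rat kidney in a model of donation after circulatory death (DCD), in which the kidney stands without blood flow before it is removed. F344 rats underwent 20 min. of warm ischaemia by clamping, for which the labels name the abdominal aorta and the methods of the study the renal artery. The 5 NP kidneys were then kept for RNA without perfusion. The 4 MSC kidneys were perfused continuously for 4 hrs at 4°C with Belzer solution (BS) that contained mesenchymal stromal cells (MSC). These cells were grown from the bone marrow of Sprague Dawley rats that carry EGFP. The study had discarded a further MSC sample for poor quality after hybridization. No array of a kidney perfused with BS alone was analysed here, so that perfusion and the MSC cannot be told apart in this comparison. The labels are divided on the NP kidneys. Their treatment field says that they were not perfused, as the study does, whereas the titles mention BS perfusion, and the treatment field was followed.

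Each segment of the nephron keeps its transporters switched on through a small set of transcription factors. The paired-box factors Pax2 and Pax8 and the LIM-homeodomain factor Lhx1 are needed early, when mesenchyme becomes epithelium, and Pax8 remains on in adult tubules. The nuclear receptor Hnf4a drives the genes of the proximal tubule, Gata3 and Tfcp2l1 belong to the distal nephron and the collecting duct, and the orphan receptor Esrrg acts on genes of mitochondrial energy use and ion transport.

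The array reads each factor through probes of 60 bases. The probes of 4 factors are printed because they show what was measured for a proximal factor (Hnf4a), for collecting duct factors (Gata3 and Tfcp2l1) and for the factor with the weakest signal (Pax2). All letters are in lower case, as no base within a probe is singled out.
Hnf4a, chr3:154482715-154482774, plus strand: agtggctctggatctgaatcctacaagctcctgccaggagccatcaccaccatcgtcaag
Gata3, chr17:80011340-80011399, plus strand: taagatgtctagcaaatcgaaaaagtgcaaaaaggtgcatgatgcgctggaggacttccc
Tfcp2l1, first probe, chr13:31331786-31332551, plus strand: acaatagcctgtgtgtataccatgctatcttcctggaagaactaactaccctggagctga
Pax2, chr1:249894567-249894626, plus strand: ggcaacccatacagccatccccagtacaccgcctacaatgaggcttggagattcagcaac

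Positions are on rn4, the build named in the array files. The first Tfcp2l1 probe is spread over 766 bases of the genome, from transcript base 1269, and the second lies further along the same transcript, from base 8767, at chr13:31345269-31345329. The remaining probes lie at chr3:2671539-2671598 on the minus strand for Pax8, chr10:72800501-72800560 on the minus strand for Lhx1, chr2:100367942-100368001 on the minus strand for Hnf4g and chr13:104404626-104404685 on the plus strand for Esrrg. No rn4 gene annotation was used here, so exons and untranslated regions were not assigned.

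All values below are log2 normalized intensities, and a difference is the MSC mean minus the NP mean on that scale. A probe was kept if it was brighter than 1.1 times the 95th percentile of the negative controls, on the log2 scale, on at least 4 arrays. Of all probes 15635 were kept, among them 7 of the 9 probes of the nephron factors, which stand for 6 of the 8 genes. Between 65.6% and 74.3% of the gene spots on an array were well above background. The arrays lay on 2 slides, the first with NP replicates 1 to 3 and MSC replicates 1 and 2, the second with NP replicates 4 and 5 and MSC replicates 3 and 4. Pearson's r across probes was 0.964 to 0.997 between arrays of a group and 0.971 to 0.994 between groups. Markers of the kidney segments were present, as the tissue label says. All 21 proximal tubule markers, all 7 of the thick ascending limb and all 9 of principal cells were kept, and 8 of 10 intercalated cell and 5 of 6 podocyte markers.

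The difference between MSC and NP kidneys was below zero for Pax8 and Lhx1 and above zero for Gata3. For both HNF4 receptors and for the second Tfcp2l1 probe it was close to zero, although with array weights it was -0.17 for Hnf4a and -0.20 for Hnf4g. None of the 7 kept probes passed an FDR under 0.05 in limma, and 0% of all 15635 probes did so. At an unadjusted p under 0.05 in limma 2 of the 7 probes, Pax8 and Lhx1, were lower in MSC kidneys, where 5.19% of all probes were. In the other direction 0 of the 7 were higher, against 6.51% of all probes. For 0 of the 7 did the groups separate fully, against 3.17% of all probes with every MSC array above every NP array and 2.13% with every MSC array below. The median difference over the 6 kept genes, at the brightest probe of each, was -0.04 and that over all kept probes was -0.0048. The member median ran from -0.13 without NP replicate 1 to 0.02 without MSC replicate 1, and was -0.15 with the probe of largest variance for each gene. In whole tissue, fewer cells of a type and less RNA per cell cannot be told apart.

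**Figure D1:**
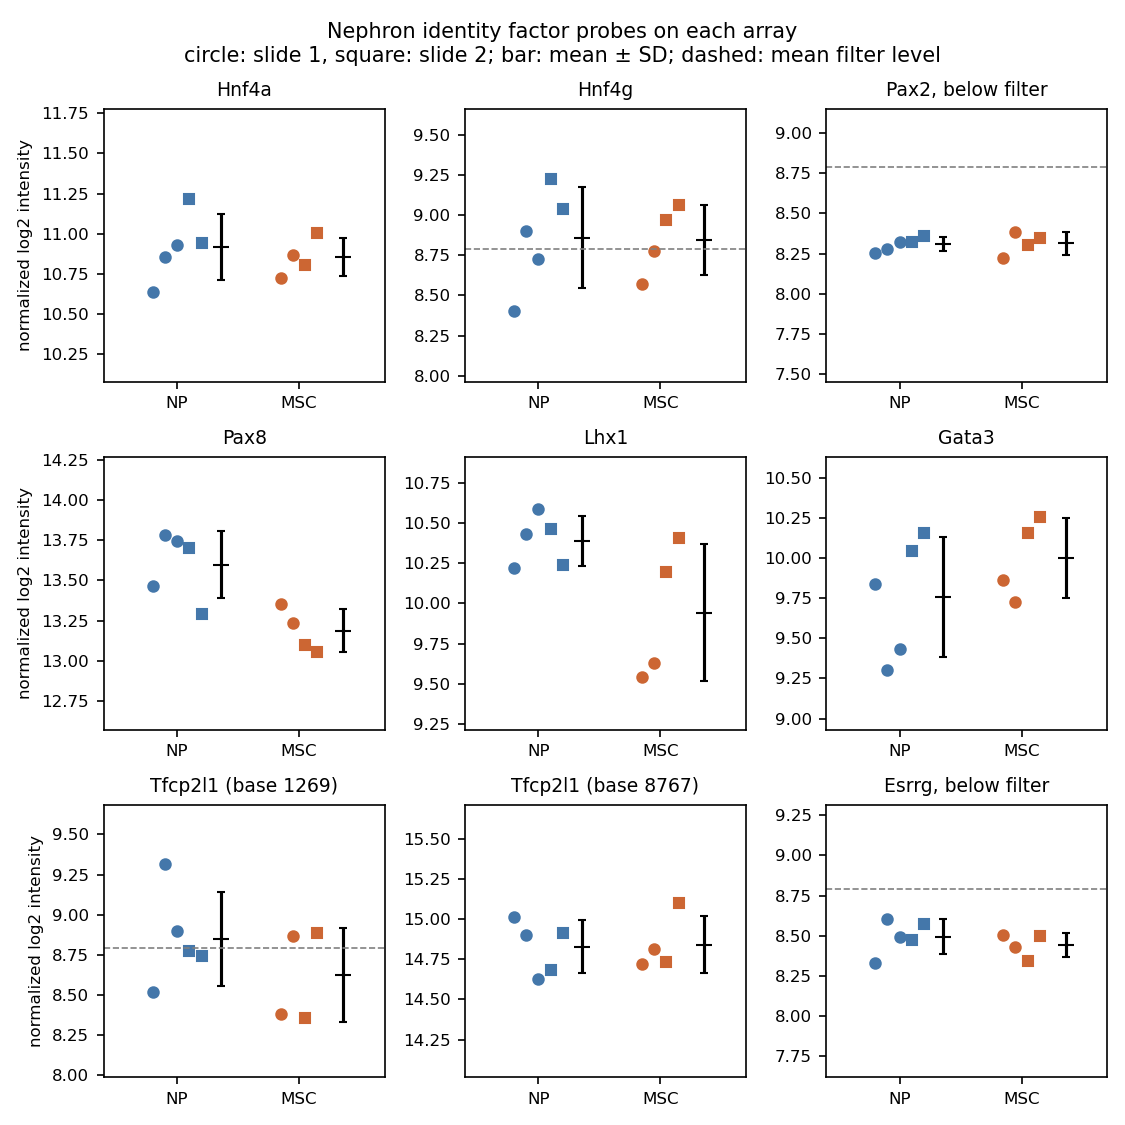
Log2 normalized intensity of the 9 probes of the nephron identity factors on the 5 NP and 4 MSC arrays, with a panel for each probe, each panel with its own vertical range. Circles are arrays of the first slide, squares of the second, bars are the mean ± SD of a group and the dashed line is the mean filter level. For Pax8 and Lhx1, 3 of the 4 MSC arrays lie below every NP array.

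Pax8 has been used as a marker of renal epithelium because adult tubules keep it. On NP replicates 1 to 5 its level was 13.47, 13.79, 13.75, 13.70 and 13.29, and on MSC replicates 1 to 4 it was 13.35, 13.24, 13.10 and 13.06. Thus 3 of the 4 MSC kidneys lay below every NP kidney, and MSC replicate 1 lay above NP replicate 5 alone. The NP mean was 13.60 ± 0.21 (SD, n = 5) and the MSC mean 13.19 ± 0.13 (SD, n = 4). The difference was -0.41 (SE 0.12, 95% interval -0.68 to -0.15), which is 1.33-fold lower, with a limma FDR of 0.333. The exact two-sided permutation test of this probe alone gave p = 0.0317, where the smallest p that 9 arrays allow is 0.00794. Within the first slide the difference was -0.37 and within the second -0.42.

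Pax2, the relative of Pax8 that builds the ureteric bud and the early nephron, gave little signal in these kidneys. Its probe was under the filter on all 9 arrays and was well above background on 3 of the 5 NP and 2 of the 4 MSC arrays. Its level ranged from 8.25 to 8.36 on NP arrays and from 8.22 to 8.38 on MSC arrays. In a limma fit without the filter the difference was 0.01 (SE 0.046, 95% interval -0.10 to 0.11, FDR 0.980).

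Lhx1 specifies the intermediate mesoderm from which the kidney forms and is needed again for the early nephron. On NP replicates 1 to 5 its level was 10.22, 10.43, 10.59, 10.47 and 10.24, and on MSC replicates 1 to 4 it was 9.54, 9.63, 10.20 and 10.41. MSC replicates 1 and 2 were far below every NP kidney, replicate 3 was just below them, and replicate 4 was among them. The means were 10.39 ± 0.16 (SD, n = 5) for NP and 9.94 ± 0.43 (SD, n = 4) for MSC. The difference of -0.45 (SE 0.18, 95% interval -0.85 to -0.04) is 1.36-fold lower, with a limma FDR of 0.395. The exact two-sided permutation test gave p = 0.0397.

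Both low MSC kidneys lay on the first slide. There the Lhx1 difference was -0.83, from an NP mean of 10.42 to an MSC mean of 9.58, whereas on the second slide it was -0.05, from 10.35 to 10.30. The second-slide difference exceeded that of the first by 0.78, with an unadjusted limma p of 0.00614 for the interaction and an FDR of 1.00. Of all kept probes 1.96% had an interaction p under 0.05. This test was added after the within-slide values had been seen. Without MSC replicate 1 the Lhx1 difference was -0.31, and without MSC replicate 2 it was -0.34.

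**Figure D2:**
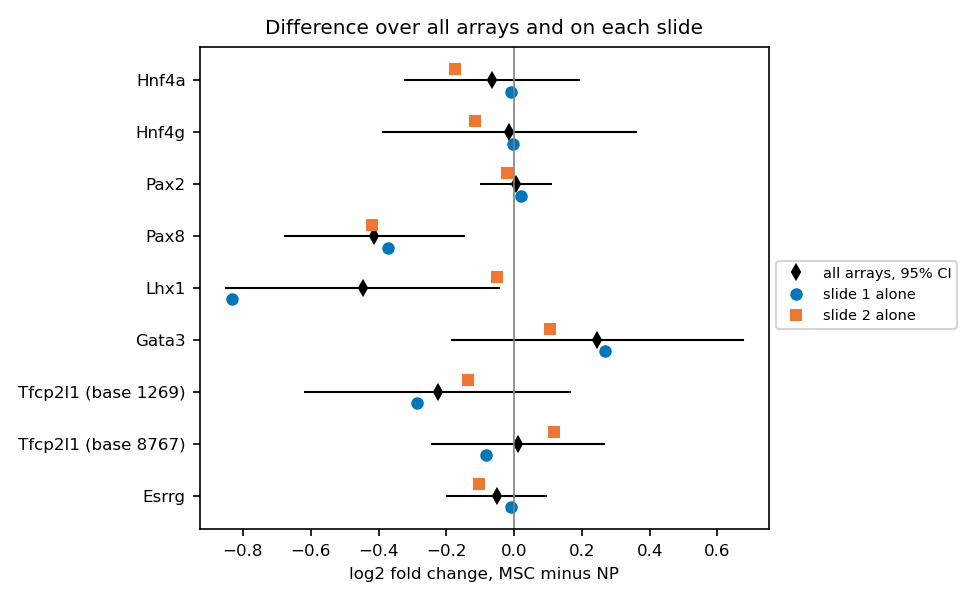
Difference of MSC minus NP in log2 normalized intensity for each probe of the nephron identity factors, over all arrays with the 95% interval from limma (diamond and line) and on the first (circle) and second slide (square) alone. The Pax8 difference is -0.37 on the first slide and -0.42 on the second, whereas that of Lhx1 is -0.83 and -0.05.

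The nuclear receptors of the HNF4 family control transport and metabolic genes of the proximal tubule. Hnf4a had levels of 10.64, 10.86, 10.93, 11.22 and 10.94 on NP replicates 1 to 5 and of 10.73, 10.87, 10.81 and 11.01 on MSC replicates 1 to 4. All MSC values lay within the NP range. The means were 10.92 ± 0.21 (SD, n = 5) and 10.85 ± 0.12 (SD, n = 4), and the difference was -0.06 (SE 0.12, 95% interval -0.32 to 0.19, limma FDR 0.858).

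Hnf4g was near the filter, which it passed on 6 of the 9 arrays. Its levels were 8.40, 8.90, 8.73, 9.23 and 9.04 on NP arrays and 8.57, 8.78, 8.97 and 9.06 on MSC arrays. Again every MSC value lay within the NP range. The difference was -0.01 (SE 0.17, 95% interval -0.39 to 0.36, limma FDR 0.980). Hnf4g was higher on the second slide than on the first by 0.41 (limma FDR 0.167 for the slide term).

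Proximal tubule markers, which include genes that Hnf4a switches on, had a median difference close to zero. Of 21 such genes 13 were above and 8 below zero, with a median of 0.06. This median ran from 0.04 without NP replicate 1 to 0.11 without NP replicate 4. At an unadjusted p under 0.05, 2 were higher and 0 lower, against 6.51% and 5.19% of all kept probes. The smallest p was that of Slc5a2, the glucose transporter SGLT2, which differed by 0.44 (SE 0.13, limma FDR 0.333). It was the only 1 of the 21 with every MSC array above every NP array, against 3.17% of all kept probes. The brightest markers, Fbp1 of gluconeogenesis and the dicarboxylate carrier Slc13a3, differed by 0.14 (SE 0.15) and 0.11 (SE 0.12), or by 0.04 and 0.06 without MSC replicate 4, and the smallest p below zero was that of Apom, at -0.08 (SE 0.08). The mean centred level of the list, each gene being centred on its mean over the 9 arrays, ran from -0.14 to 0.10 on NP arrays and from -0.01 to 0.06 on MSC arrays.

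Gata3 marks the collecting duct and the connecting tubule. Its level was 9.84, 9.30, 9.44, 10.05 and 10.15 on NP replicates 1 to 5 and 9.87, 9.73, 10.16 and 10.26 on MSC replicates 1 to 4. NP replicates 2 and 3 were the lowest, MSC replicate 4 was the highest, and NP replicate 5 and MSC replicate 3 were nearly equal. The means were 9.76 ± 0.37 (SD, n = 5) and 10.00 ± 0.25 (SD, n = 4). The difference of 0.25 (SE 0.19, 95% interval -0.18 to 0.67, limma FDR 0.640) was within the spread of the kidneys. It was 0.27 on the first slide and 0.11 on the second. The second slide was higher than the first by 0.50 (limma FDR 0.123 for the slide term), and with array weights the difference between groups was 0.02. Without NP replicate 2 it was 0.13.

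Markers of the segments in which Gata3 is found were low on the same NP kidneys. The mean centred level of the 9 principal cell markers was -0.42 and -0.34 on NP replicates 2 and 3 and ranged from -0.08 to 0.12 on the other NP arrays. On MSC arrays it ranged from -0.25 to 0.52. The part of these cells in the Gata3 values was not tested. Of the same 9 markers 3 were higher at an unadjusted p under 0.05 and 0 were lower, against 6.51% and 5.19% of all kept probes. For 2 of the 9 every MSC array was above every NP array, against 3.17% of all kept probes. Scnn1b, a subunit of the epithelial sodium channel, differed by 0.97 (SE 0.24, limma FDR 0.333), Hsd11b2, which inactivates glucocorticoids, by 0.63 (SE 0.21, limma FDR 0.335), and Aqp2, the vasopressin-regulated water channel, by 0.13 (SE 0.12). The Aqp2 difference was -0.00047 without MSC replicate 4. Slc14a2, a urea transporter, was below zero at -0.28 (SE 0.42), with MSC replicate 2 at 11.66 and the other MSC arrays from 12.74 to 13.83, and was 0.15 without that replicate.

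Tfcp2l1 is a grainyhead-like factor that is needed for the intercalated and principal cells of the collecting duct. Its first probe passed the filter on 5 arrays, with levels of 8.52, 9.31, 8.90, 8.77 and 8.74 on NP and 8.38, 8.87, 8.36 and 8.89 on MSC arrays. The difference was -0.23 (SE 0.18, 95% interval -0.62 to 0.17, limma FDR 0.637). It was -0.11 without NP replicate 2, -0.14 without MSC replicate 1 or 3, and -0.53 from processed signals. MSC replicates 1 and 3 lay below every NP array, and the other two were within the NP range.

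The second Tfcp2l1 probe was above the filter on all 9 arrays. Its levels were 15.02, 14.90, 14.63, 14.69 and 14.92 on NP and 14.72, 14.81, 14.73 and 15.10 on MSC arrays. The difference was 0.01 (SE 0.11, 95% interval -0.24 to 0.27, limma FDR 0.974). The 2 probes thus differed in sign, and neither difference was larger than the spread between kidneys.

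Esrrg was under the filter on all 9 arrays, although it was well above background on each of them. Its level ranged from 8.33 to 8.61 on NP arrays and from 8.34 to 8.50 on MSC arrays. Without the filter the difference was -0.05 (SE 0.065, 95% interval -0.20 to 0.09, limma FDR 0.867).

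Intercalated cells, the acid and base secreting cells in which Tfcp2l1 is active, were followed through 10 markers. Of these 8 were kept (Clnk and Insrr were not). At an unadjusted p under 0.05, 6 were higher and 0 lower, against 6.51% and 5.19% of all kept probes. For 5 every MSC array was above every NP array, against 3.17% of all kept probes. The median difference of the 8 kept markers was 0.72. Their mean centred level ran from -0.68 to 0.13 on NP arrays and from 0.19 to 0.54 on MSC arrays. Atp6v0d2, a subunit of the proton pump, differed by 0.76 (SE 0.16, limma FDR 0.333), and Atp6v1b1, another of its subunits, by 0.55 (SE 0.20, limma FDR 0.374), or by 0.36 without NP replicate 2. The anion exchanger Slc4a1 differed by 0.08 (SE 0.13) and the water channel Aqp6 by -0.14 (SE 0.14), or by -0.04 and -0.26 without MSC replicate 4. Without MSC replicate 3 Aqp6 was -0.03, and without NP replicate 2 it was -0.07. Slc4a1 was 0.14 without MSC replicate 2, MSC replicate 3 or NP replicate 1 and 0.02 without NP replicate 3. Foxi1, the master regulator of these cells, differed by 0.19 (SE 0.19, limma FDR 0.724), which was 0.07 without MSC replicate 4, 0.09 without NP replicate 2, 0.29 without MSC replicate 3 and 0.33 without NP replicate 1. In limma 0 of the markers passed an FDR under 0.05. The part of these cells in the Tfcp2l1 values was not tested. The markers of the distal convoluted and connecting tubule had a median of 0.41. At an unadjusted p under 0.05, 4 of 7 kept genes were higher and 1 lower, against 6.51% and 5.19% of all kept probes. For 1 of the 7 every MSC array was above every NP array, against 3.17% of all kept probes. Calb1, a calcium-binding protein of these segments, differed by 1.13 (SE 0.16, limma FDR 0.236), and S100g, another such protein, by -0.33 (SE 0.12, limma FDR 0.347). The probe that the files name Klk1, a kallikrein, now carries the name Klk1b3 and differed by 0.67 (SE 0.31, limma FDR 0.440) and the thiazide-sensitive cotransporter Slc12a3 by 0.41 (SE 0.17, limma FDR 0.399).

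**Figure D3:**
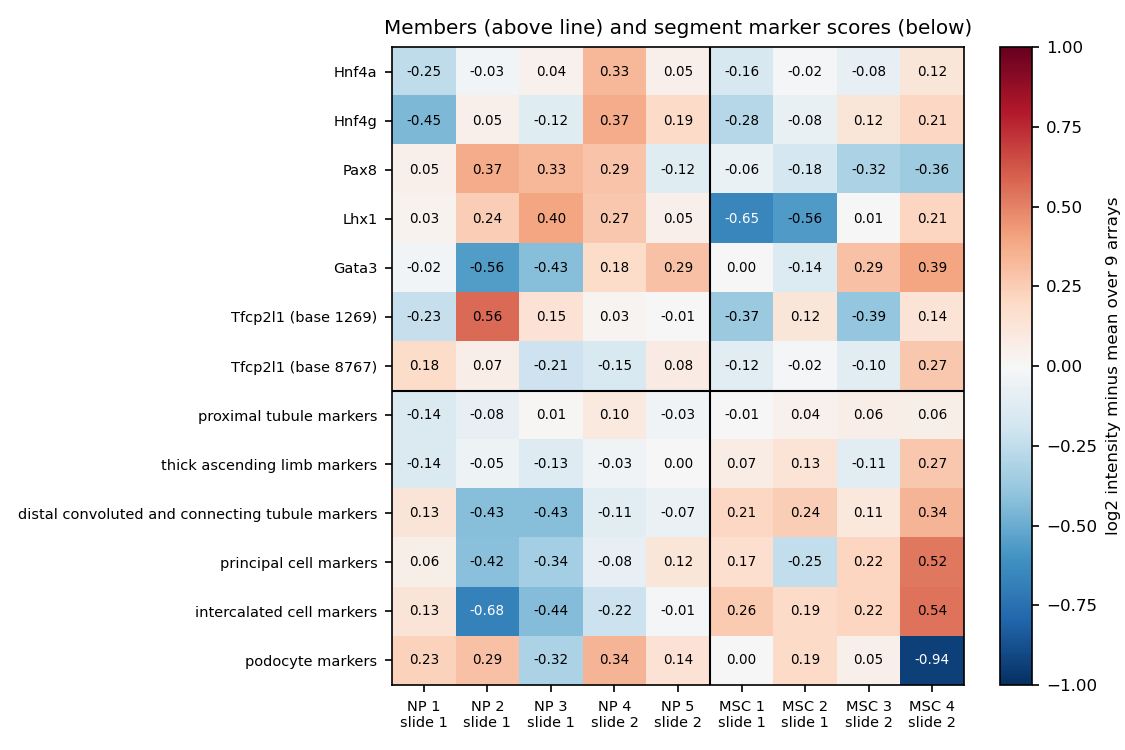
Log2 normalized intensity minus its mean over the 9 arrays (colour and printed value) for the 7 kept probes of the nephron identity factors (above the horizontal line) and the mean of the same quantity over the kept markers of 6 nephron cell types (below it), on the 5 NP and 4 MSC arrays (columns). Gata3 and the principal cell markers are lowest on NP replicates 2 and 3, Lhx1 is lowest on MSC replicates 1 and 2, and the intercalated cell markers are above their NP range on all 4 MSC arrays.

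Other transcription factors of the kidney were looked at as a list of 31 genes, of which 29 were on the array and 25 were kept. Of these 8 were above and 17 below zero, with a median of -0.14, where 51.25% of all kept probes were below zero. Without MSC replicate 2 the median was -0.09, with 10 above and 15 below zero, and without MSC replicate 3 it was -0.22. In limma 0 passed an FDR under 0.05. At an unadjusted p under 0.05, 3 were lower (Sall1, Irx2 and Irx1) and 0 higher, against 5.19% and 6.51% of all kept probes. For 2 of the 25 (Sall1 and Irx2) every MSC array was below every NP array, against 2.13% of all kept probes.

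Sall1, a zinc finger factor that maintains nephron progenitors, had levels from 10.65 to 11.00 on NP and from 10.32 to 10.53 on MSC arrays, so that the groups did not overlap. Its difference was -0.40 (SE 0.09, limma FDR 0.333). Irx2, an Iroquois homeobox factor of the developing tubule, also had groups that did not overlap, with 11.58 to 12.50 on NP and 10.96 to 11.36 on MSC arrays. It differed by -0.72 (SE 0.18, limma FDR 0.333), while its other probe was under the filter. Its neighbour Irx1 differed by -0.34 (SE 0.11, limma FDR 0.335), with overlapping groups. Irx1 and Irx2, like Foxi1 above, were named after their values had been seen. Nr1h4, the bile acid receptor FXR, had the smallest p among the factors above zero, with a difference of 0.21 (SE 0.13, limma FDR 0.557), or 0.13 without MSC replicate 3. Elf3, an epithelial ETS factor, differed by 0.14 (SE 0.17). Without MSC replicate 2, MSC replicate 4 or NP replicate 4 this was 0.04, 0.05 or 0.06, and without MSC replicate 3 it was 0.30.

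The cofactors and partners through which these factors act were a list of 15 genes with 13 kept. Of these 12 were below and 1 above zero, with a median of -0.17, where 51.25% of all kept probes were below zero. Without NP replicate 2 the median was -0.10, with 10 below and 3 above zero. At an unadjusted p under 0.05, 3 were lower, among them Nr0b2 and Zfpm1, against 5.19% of all kept probes. In limma 0 passed an FDR under 0.05. Nr0b2, the small heterodimer partner that represses Hnf4a, differed by -0.48 (SE 0.20, limma FDR 0.399), and Zfpm1, a partner of GATA factors, by -0.35 (SE 0.15, limma FDR 0.408). Zfpm1 was -0.51 within the first slide and -0.15 within the second, with an unadjusted limma p of 0.0527 with slide as a block, and its p was under 0.05 in 16 of 26 alternatives. Nr0b2 was -0.69 and -0.26 within the slides, with a p under 0.05 in 19 of 26. Nr0b2 and Zfpm1 were named after their values had been seen. Ldb1, which bridges LIM factors such as Lhx1, was the only one of the 13 above zero over all arrays. Its difference was 0.25 (SE 0.14, limma FDR 0.494), with 0.11 under array weights and 0.50 from processed signals. Ncoa1, a coactivator of nuclear receptors, differed by -0.09, or by -0.03 without NP replicate 2, -0.06 without MSC replicate 1 and -0.14 without NP replicate 4.

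Close relatives of the 8 factors were mostly dim, with 8 of 20 genes kept and a median difference of -0.04, or 0.02 without NP replicate 5. Among them 1 was higher at an unadjusted p under 0.05 and 0 were lower, against 6.51% and 5.19% of all kept probes. This was Pax3, a paired-box factor of muscle and neural crest, which differed by 1.11 (SE 0.27, limma FDR 0.333). Every MSC array (13.65 to 14.54) lay above every NP array (12.21 to 13.61) at this probe, as at 3.17% of all kept probes. The other Pax3 probe was under the filter, at a mean of 7.94, which is below the 95th percentile of the negative controls on every array. Whether the bright probe reads Pax3 alone was not tested. Esrra, the relative of Esrrg with a wide role in mitochondrial genes, differed by -0.04, and Ubp1, the relative of Tfcp2l1, by -0.06.

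**Figure D4:**
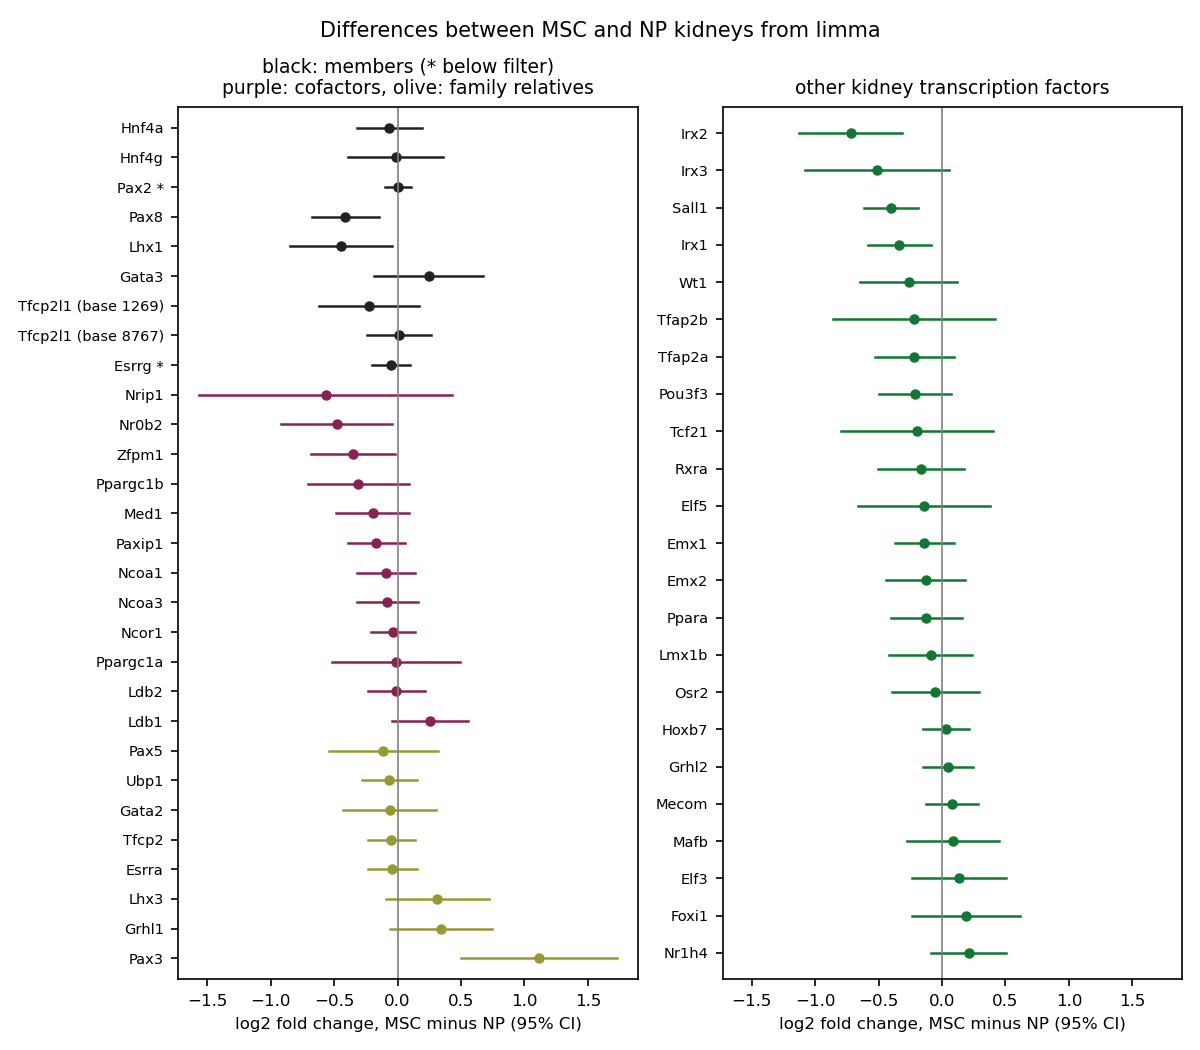
Difference of MSC minus NP in log2 normalized intensity (horizontal axis, points) with its 95% interval from limma (lines), for the 9 probes of the nephron identity factors (black, with those below the filter marked by an asterisk and taken from the fit without the filter), and for kept genes of the lists of cofactors (purple), family relatives (olive) and other kidney transcription factors (green). Among the nephron factors the intervals of Pax8 (-0.68 to -0.15) and Lhx1 (-0.85 to -0.04) lie below zero and the rest include it.

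Among the 15 pairs of the 6 kept factors, Hnf4a and Hnf4g ran most closely together over the 9 arrays. Pearson's r was 0.868 (exact permutation p = 0.00244, adjusted p = 0.0366 over the 15 pairs) and Spearman's rho 0.833 (exact permutation p = 0.00827, adjusted p = 0.124). Without the 2 arrays farthest from the Hnf4a median r was 0.663, and after the mean of each slide was taken away it was 0.819. Pax8 and Gata3 ran in opposite directions, with r of -0.743 (exact permutation p = 0.0245, adjusted p = 0.183) and rho of -0.783 (exact permutation p = 0.0172, adjusted p = 0.129). Without the 2 arrays farthest from the Pax8 median r was -0.357, so that the relation rests in part on those arrays, and after slide means it was -0.752. Neither adjusted p for this pair was under 0.05. A slide holds 5 or 4 arrays, too few for a correlation within it. The permutations ran freely over all 9 arrays, so the p-values of these pairs take no account of slide or group.

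The genes most like each factor over the 9 arrays were found by Pearson's r among 10264 genes, as a description of arrays that share slide, tissue and treatment differences. For Pax8 these were Gadd45gip1 (r 0.985) and Ftcd (0.983), and for Lhx1 they were Zc3h10 (0.957) and Mbd4 (0.953). For Hnf4a they were Mllt3 (0.944) and Rpusd3 (0.925), and for Hnf4g Trps1 (0.971) and Plekhg3 (0.967). For Gata3 they were Flot1 (0.978) and Arhgef18 (0.977), and for the second Tfcp2l1 probe C2cd2 (0.968) and Extl1 (0.953).

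Markers of other tissue also varied between the arrays. Of 6 fat markers 4 were kept (Plin1 and Lep were not), all above zero with a median difference of 1.33. Of these 2 were higher at an unadjusted p under 0.05, against 6.51% of all kept probes. Without MSC replicate 3 the median was 0.80. Their mean centred level ran from -1.11 to 0.06 on NP and from -1.01 to 2.13 on MSC arrays, being highest on MSC replicates 3 and 4. These are the MSC arrays of the second slide and had the higher Lhx1 and Gata3 levels of the group, whereas the NP arrays of that slide, which had the highest NP levels of Gata3, had the lowest NP fat levels (-1.02 and -1.11). For podocytes, where Wt1 is the leading factor, 5 of 6 markers were kept, all below zero with a median of -0.33 and 0 at an unadjusted p under 0.05. Without MSC replicate 4 the median was -0.09, with 4 below and 1 above zero. Their mean centred level ran from -0.32 to 0.34 on NP and from -0.94 to 0.19 on MSC arrays. Wt1 itself, named after its value had been seen, differed by -0.26 (SE 0.17, limma FDR 0.569). It was -0.04 within the first slide, -0.51 within the second and -0.14 without MSC replicate 4. The other Wt1 probes were under the filter. The part of fat and of podocytes in the values of the nephron factors was not tested.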

How the data were processed

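Each array measured the RNA of 1 kidney, labelled with Cy3 in 1 colour. The authors deposited, per the file headers, the raw intensity of each spot from Agilent Feature Extraction 10.7.3.1, and a table of log2 values that the authors had normalized and filtered. Each array has 62976 spots, among them 58717 gene spots and 308 negative controls. Here the mean pixel intensity was taken as log2, put through cyclic loess across arrays (limma 3.58.1, R 4.3.3), and averaged over the spots of a probe. Against the log2 table deposited by the authors, whose columns have medians of 8.75 to 8.92, the lowest Pearson's r of an array was 0.9999.

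MSC and NP were compared with limma and Benjamini-Hochberg adjustment over all 15635 kept probes, with group as the only term. A probe was called where its fold change was over 1.5 at an FDR under 0.05. Single probes also had an exact permutation test over the 126 splits of the 9 arrays. Where a gene had several kept probes, the brightest stood for it in lists and correlations. The steps were tested on simulated data. Precision is limited by the number of arrays, and p-values measure the spread between kidneys.

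The members and lists were chosen with earlier results of these data known. Named genes were all members, in each of the other factor lists the gene with the smallest p in each direction and the brightest 2, in each marker list those of the same kind, and the 2 genes most like each member. Of the markers this rule names, those of the proximal tubule, the distal convoluted and connecting tubule, principal and intercalated cells are given. Some list genes are counted in their list but are not reported here by name. Lists were described by counts and medians, without a set test. Of 154 kept probes of members and lists, 141 matched a current RefSeq name by accession and 3 of these carry another name now. The Hnf4g accession was not matched. The alternatives took other intensity columns, background corrections, normalizations, filters, probe choices, variance models, slide and replicate blocks, and the deposited values, and left out each array in turn.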

Additional observations from a re-analysis of the deposited data

Results flagged for a closer look

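In 46 groups of 4 or 5 arrays, which covered the member probes and the list scores, 1 held an array far from the others, where chance gives about 2.3 (1 in 20). It was the mean centred level of the mesenchymal stromal cell markers (3 of 5 kept), which on MSC replicate 2 was -0.06 against 0.15 on the nearest MSC array. The gap was 0.833 of the range of the group. No probe of a nephron identity factor was set apart in this way.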

How the results depend on the processing

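Over 26 alternatives the Pax8 difference stayed between -0.49 and -0.33, the Lhx1 difference between -0.83 and -0.05 and the Gata3 difference between 0.02 and 0.42, each with 1 sign. The unadjusted limma p of Pax8 was 0.00127 to 0.0478, and that of Lhx1 0.00196 to 0.726, under 0.05 in 18 alternatives. No probe was called at the FDR and fold used, except 2 higher with array weights and 4 higher within slide 2, none a nephron factor. Leaving out each array in turn called 0. At an unadjusted p under 0.05, 1018 probes were higher, 811 lower and 2 were member probes. With a fold over 1.5 added, 95 were higher, 82 lower and 0 were member probes. The member median was -0.19 with array weights, and that of family relatives 0.05 within slide 1. The cause was not tested.

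Signs turned where a difference was near zero. Hnf4g was 0.081 from processed signals, 0.015 with quantile normalization and 0.016 with 75th percentile scaling, and with each array left out in turn it ran from -0.13 (without NP replicate 1) to 0.077 (without MSC replicate 1). The second Tfcp2l1 probe was -0.0086 from processed signals, -0.057 with median scaling, -0.019 with 75th percentile scaling and -0.083 within slide 1, and ran from -0.075 (without MSC replicate 4) to 0.059 (without NP replicate 1). Hnf4a ran from -0.13 (without NP replicate 1) to 0.011 (without NP replicate 4). Ubp1 was 0.022 with array weights and 0.0028 within slide 2, and Ncoa1 0.062 within slide 2. Esrra ran from -0.091 (without MSC replicate 3) to 0.0038 (without NP replicate 5).

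After the group mean of each probe was taken away, same-numbered arrays had correlations of 0.20, 0.32, -0.35 and 0.05. The closest NP array had the same number for MSC replicates 1 and 2 and another number for replicates 3 and 4. Slide was not taken away, so these values cannot settle whether the numbers pair the kidneys. With the replicate block (4 pairs, NP replicate 5 drops out) the counts were 0 higher and 0 lower, Hnf4g was 0.031, Esrra 0.0038, Pax8 -0.49, Lhx1 -0.48 and Gata3 0.34.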
